A study of Mus musculus with 6 samples.

Results

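Among the stretches of open chromatin that every library of mouse blood leukocytes shared, 841 distal regions ranked lower in mice in high-altitude de-acclimatization (HADA) than in control mice. Peaks of 6 lists on chromosomes 1 to 19 were merged where they shared 1 bp, which gave 60298 regions, of which 23013 held a peak in all 6 libraries. In 8312 of these, all summits lay more than 3 kb from every annotated transcript start, and these are called shared distal regions here. Each region's highest −log10 p-value from the peak caller was turned into a percentile of its own peak list, that is, the share of that library's peaks it exceeded. The 841 regions are those whose highest HADA percentile was at least 10 points below their lowest control percentile, which makes 10.1% of the shared distal regions. The same margin in the other direction took 746 regions (8.97%), and 6725 were in neither set. Ranked among the shared distal regions alone, in place of all peaks of a list, 815 regions were weaker and 1452 stronger, and 573 of the 841 met the margin on both rankings. The regions were chosen by their percentiles in the control and HADA lists, so those values are given as a description, with no test. Fewer libraries make the margin easier to meet: 1446 regions met it without control 3 and 1410 without HADA 3, and the stronger set went from 746 to 1530 regions without control 1.

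ATAC-seq, which reads open DNA by where the Tn5 transposase can cut and tag it, was run on 3 control and 3 HADA samples, with 1 library each. Per the study's methods, the animals were male C57BL/6j mice, bought at 8 weeks of age. HADA mice had spent 28 days in a hypobaric chamber set to 6000 m and were then returned to normal oxygen, and control mice stayed in normal oxygen. Per the labels the cells were unsorted leukocytes left after red cell lysis. The study's text elsewhere names them as mononuclear cells, a fraction poor in neutrophils, and the sources used here do not settle which it was. Neither the day of blood sampling for ATAC-seq nor any pooling of animals is given in the sources used here. In such bulk material, fewer cells of a type and less open chromatin per cell cannot be told apart.

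Distal open regions often act as enhancers, which bind transcription factors and act on genes that may lie far along the chromosome. Their set differs strongly between blood cell types. C/EBP proteins are basic leucine zipper factors that drive the development of neutrophils and monocytes and keep their enhancers open, together with the ETS factor PU.1. Neutrophils, monocytes and lymphocytes circulate together, so the accessible regions of whole blood leukocytes are a sum over these cells.

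Of the 841 regions, 6 are shown first, since their sequences carry the features described further on. They are the region with the largest gap between groups and 5 others that hold a C/EBP match, and they were picked after their values were seen. Each sequence is the 201 bases around the region's strongest summit on the + strand of GRCm39, from 5′ to 3′, and capitals mark a match to any of 18 searched motifs. The Gas7 window (chr11:67450419-67450619) lies in an intron of Gas7, which encodes a cytoskeletal adaptor, and its capitals are a CACCC box. The Ccr1 window (chr9:123764889-123765089) lies in an intron of Ccr1, a chemokine receptor of myeloid cells, and holds 1 C/EBP match. Those nearest to Atg4c (chr4:99075085-99075285), an autophagy protease, and Id1 (chr2:152583521-152583721), an inhibitor of DNA binding by helix-loop-helix factors, are intergenic. Eed (chr7:89666256-89666456), a core subunit of the Polycomb repressive complex 2, is the gene with the nearest start to an intronic window, and Clec4d (chr6:123229813-123230013), a C-type lectin of neutrophils and monocytes, that of an intergenic window with both a C/EBP and an AP-1 match.
Gas7: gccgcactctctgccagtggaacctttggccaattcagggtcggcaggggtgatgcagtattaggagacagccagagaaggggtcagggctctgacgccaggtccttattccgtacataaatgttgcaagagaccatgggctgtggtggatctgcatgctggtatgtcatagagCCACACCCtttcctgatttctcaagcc
Ccr1: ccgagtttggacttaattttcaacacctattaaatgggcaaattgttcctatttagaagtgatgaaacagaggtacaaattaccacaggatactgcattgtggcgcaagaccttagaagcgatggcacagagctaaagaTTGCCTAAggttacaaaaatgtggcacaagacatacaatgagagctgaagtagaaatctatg
Atg4c: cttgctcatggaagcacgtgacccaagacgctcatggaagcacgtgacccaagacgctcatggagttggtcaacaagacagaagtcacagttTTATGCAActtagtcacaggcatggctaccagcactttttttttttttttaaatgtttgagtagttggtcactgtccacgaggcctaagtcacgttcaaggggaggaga
Id1: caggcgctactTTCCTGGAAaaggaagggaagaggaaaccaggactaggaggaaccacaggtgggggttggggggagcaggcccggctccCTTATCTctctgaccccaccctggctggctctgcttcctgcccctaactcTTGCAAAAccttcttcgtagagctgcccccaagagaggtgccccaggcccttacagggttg
Eed: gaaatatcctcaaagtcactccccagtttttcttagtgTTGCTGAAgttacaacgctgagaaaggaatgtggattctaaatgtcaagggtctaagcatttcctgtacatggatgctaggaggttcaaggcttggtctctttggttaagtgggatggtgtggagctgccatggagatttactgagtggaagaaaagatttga
Clec4d: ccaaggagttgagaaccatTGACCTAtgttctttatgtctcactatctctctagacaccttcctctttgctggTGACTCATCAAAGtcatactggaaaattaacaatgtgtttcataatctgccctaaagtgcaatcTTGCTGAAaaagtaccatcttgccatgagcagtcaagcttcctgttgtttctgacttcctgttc
The C/EBP match is TTGCCTAA at Ccr1, TTGCAAAA at Id1, and TTGCTGAA at both Eed and Clec4d, while at Atg4c it is read on the other strand as TTATGCAA. Id1 also holds a STAT and a GATA match, and the AP-1 match of Clec4d is TGACTCA. A match says only that these letters are in the window.

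The 841 regions were well above the middle of the control lists and below the middle of the HADA lists. Their median percentile was 66.1, 71.1 and 70.2 in control 1 to 3 and 41.3, 34.2 and 36.4 in HADA 1 to 3. For the −log10 p-value the medians were 31.5, 37.8 and 46.0 in control against 17.6, 12.6 and 12.7 in HADA. Of the 841, 635 lay above the 50th percentile in every control library and 129 above the 80th, and 84 lay under the 20th percentile in every HADA library. These were thus mostly mid-ranking to strong peaks in control blood and mid-ranking to weak ones in HADA blood. Control 3 differed from the other controls in the rest of the shared distal regions, where its median percentile was 50.1 in the regions of neither set, against 59.4 in control 1 and 63.3 in control 2. In the 841 regions it was as high as they were, and it gave the highest percentile of all libraries in 453 of them. Among HADA libraries, the lowest value fell in HADA 1 in 165 regions, in HADA 2 in 351 and in HADA 3 in 325.

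**Figure D1:**
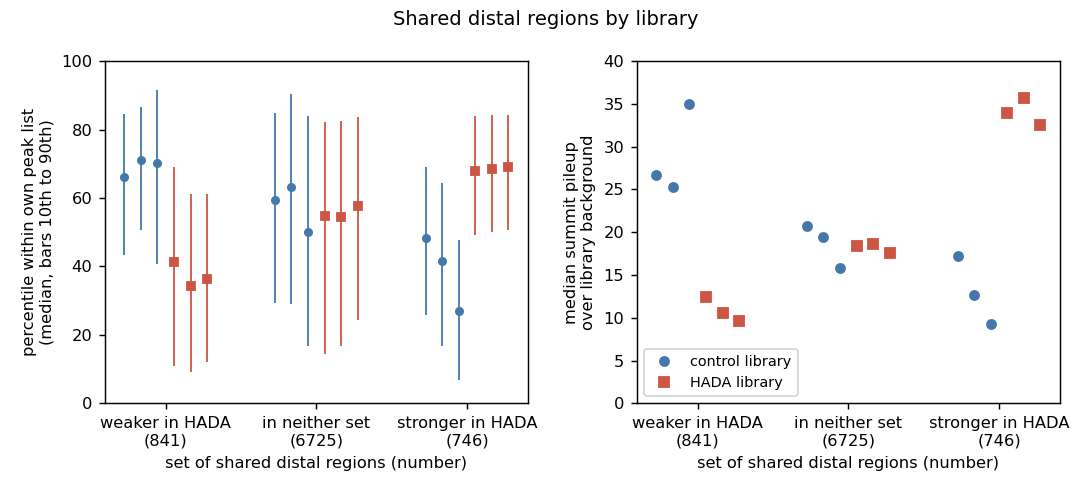
Left, the percentile of shared distal regions within their own peak list, as the median with bars from the 10th to the 90th percentile of regions, and right, the median summit pileup over the library background, for each of 3 control and 3 HADA libraries. In the 841 weaker regions every control point lies above every HADA point on both scales, and control 3 has the highest pileup, a median of 35.0 times its background.

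The height of the peaks moved with their rank. A summit pileup, the number of fragments piled up at the summit, was solved from the deposited fold and p-value, and its median went from 45, 52 and 64 in control 1 to 3 to 29, 21 and 22 in HADA 1 to 3. The lists' lowest background pileup, which stands for depth, was 1.69, 2.05 and 1.83 in control and 2.34, 1.99 and 2.27 in HADA, so 2 of the HADA libraries were the deepest. Divided by this background, the median pileup was 26.7, 25.3 and 35.0 in control and 12.4, 10.6 and 9.68 in HADA. On the log2 scale the median difference of HADA from control was −1.32 in the 841 regions and −0.19 over all shared distal regions. The undivided pileup gave −1.08 and 0.05. In 788 of the 841 (93.7%) the pileup of every HADA library was below that of every control library, against 16.4% of shared distal regions. For the deposited fold over local background it was 689 (81.9%) against 23.1%. Both are measures of the contrast that chose the regions, and nothing is read from these shares. The fold is relative to the local background around the summit, which was also lower in HADA, with medians of 3.96, 4.15 and 5.43 in control and 3.11, 2.27 and 2.43 in HADA. Ranked by the fold in place of the p-value, 480 of the 841 regions met the margin, and named regions or groups that did not are given with their gap or count.

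The gap between groups, the lowest control minus the highest HADA percentile, had a median of 14.9 points. It was at least 20 points in 189 regions, at least 30 in 31 and at least 40 in 3. The limit cuts through a continuous range. Just inside it were regions nearest to Bcl2a1a (10.02 points), Prkch (10.02) and Fkbp1a (10.01), and just outside were regions nearest to Etv6 (9.95), Trub2 (9.94) and Synpr (9.94). Prkch had percentiles of 94.2, 95.1 and 97.5 in control against 84.2, 82.1 and 77.5 in HADA, and Etv6 had 64.2, 60.4 and 61.9 against 41.3, 50.4 and 36.1. The Etv6 region, though outside, thus had the larger drop of the mean.

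The largest gap, 45.5 points, was at the Gas7 intron, 12240 bp from the nearest start of the gene. Its percentiles were 66.1, 71.7 and 60.0 in control 1 to 3 and 5.58, 10.6 and 14.5 in HADA 1 to 3, and its summit pileups were 60, 68 and 54 against 20, 22 and 23. Every control value thus lay far above every HADA value, in pileup as in percentile. The mean pileup over library background was 32.7 ± 3.04 in control and 9.90 ± 1.27 in HADA (SD, n = 3 each), a ratio of 0.303.

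An intron of Agtpbp1, which removes glutamate chains from tubulin, came next with a gap of 40.2 points. Its percentiles were 60.9, 63.6 and 64.8 in control against 6.48, 9.21 and 20.7 in HADA. Next to it in order was an intron of Slx4ip, a partner of the DNA repair scaffold SLX4, with 63.6, 67.5 and 63.3 against 20.8, 16.6 and 23.1. Its pileups of 36, 42 and 38 against 16, 13 and 15 were among the most even within groups. A region inside Cdh12, a cadherin gene, whose nearest start is that of Acot10 at 123030 bp, had percentiles of 71.3, 73.3 and 68.4 in control and 29.4, 9.21 and 26.4 in HADA.

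At the Ccr1 intron, 3745 bp from a start, control percentiles of 58.0, 61.1 and 72.2 stood against 19.5, 0.976 and 2.91 in HADA. The pileups there were 96, 94 and 189 against 53, 23 and 23. HADA 2 and 3 were therefore near the bottom of their lists while HADA 1 was not, and control 3 stood well above the other controls. Ranked by the fold, its gap was 3.87 points in place of 38.4, under the margin. Another region nearest to Ccr1, intergenic and 31914 bp away, held both a C/EBP and an AP-1 match and had pileups of 188, 158 and 367 in control and 130, 62 and 61 in HADA, and ranked by the fold its groups overlapped.

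The same spread within groups was seen at Olfm1, Upp1 and Id1. Near Olfm1, a secreted glycoprotein gene, the pileups were 54, 48 and 129 in control against 22, 10 and 14 in HADA, and the ratio of means over background, 0.164, was the lowest of the 15 regions with the largest gap. Near Upp1, the uridine phosphorylase gene, they were 43, 42 and 103 against 22, 12 and 14. Near Id1 they were 70, 70 and 104 against 38, 21 and 24. In each of these, control 3 was the highest control and HADA 1 the highest HADA library, and the groups did not overlap. Leaving Olfm1 aside, the ratios of the 15 ran up to 0.353, with a median over all 15 of 0.282.

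Of the others among the 15, the regions nearest to Eed and Atg4c had closely ranked controls, with percentiles of 62.6, 60.5 and 65.5 against 27.5, 22.7 and 10.2 at Eed and 68.8, 65.8 and 63.7 against 29.4, 23.8 and 23.1 at Atg4c. They parted when the fold was ranked, with a gap of 1.01 points at Eed, under the margin, and 32.1 at Atg4c. Eed and the Ccr1 intron were the only regions of the 15 that the fold ranking took below the margin. Those nearest to Sntb2, Cdc42ep3 and Trim9 had gaps of 33.4 to 35.1 points. The region nearest to Arrdc4 lay 590633 bp from that gene's start, in a stretch with no nearer protein-coding start. The 50 summit bases of the region nearest to Irak1bp1 have 12163 copies in the genome, which makes the origin of its reads, and with it the gap of 35.3 points, uncertain.

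**Figure D2:**
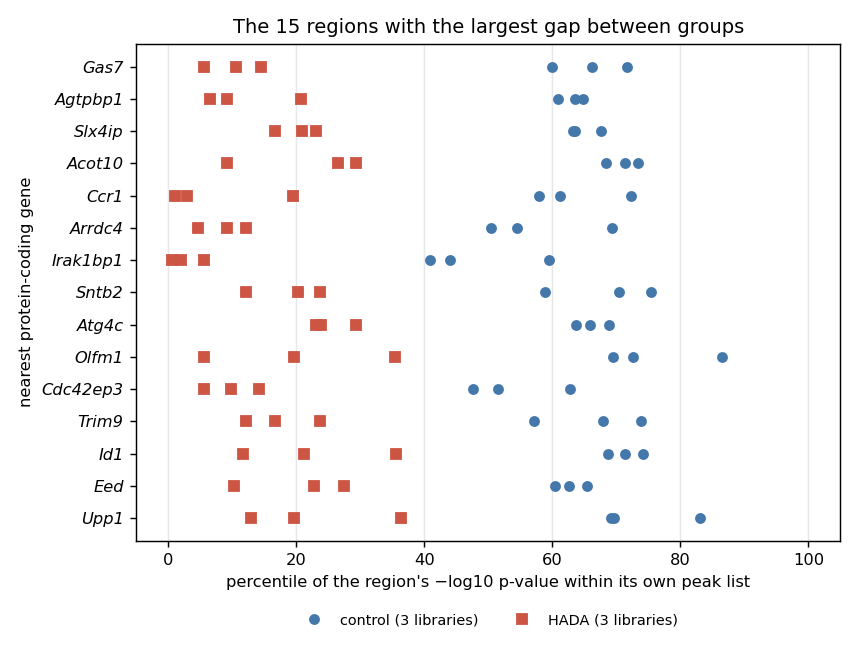
Percentile of the region's −log10 p-value within its own peak list (horizontal axis, 0 to 100) for the 15 regions with the largest gap, named by the protein-coding gene with the nearest start, with 3 control and 3 HADA points each. At Gas7 the control points lie between 60.0 and 71.7 and the HADA points between 5.58 and 14.5, and at Irak1bp1 the HADA points lie at 0.497 to 5.52.

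Assigned by nearest protein-coding start, 24 of the 841 regions belonged to genes of 14 lists of cell type markers and pathways, from 192 shared distal regions of listed genes (12.5%, beside 10.1% of all shared distal regions). They came from 8 lists, and the other 6 held none. Among these 6, the erythroid and platelet list had 0 shared distal regions, so it could hold none. Over the 24, the ratio of the mean pileup over background in HADA to that in control ran from 0.188 to 0.570. In 21 of them control 3 had the highest control pileup, as it had in 540 of all 841. Ranked by the fold, 7 of the 24 met the margin, namely 3 of inflammatory signalling, 2 of monocyte and 2 of AP-1 family genes, so the counts of the other 5 lists rest on the p-value and the pileup. Assigned by the nearest start of a gene of any type, 0 glucocorticoid and circadian, 0 hypoxia response and 2 inflammatory signalling regions were counted, in place of 4, 2 and 5, with 3 of neutrophil and 2 of AP-1 family genes in place of 4 each. The eosinophil and basophil count was then 1 in place of 2.

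Of 14 shared distal regions at neutrophil genes, 4 were among the 841 and 0 were in the stronger set. With the fold ranked, 0 met the margin, and over all alternatives run the number was 0 to 8. The 4 belonged to S100a9, a subunit of calprotectin, Fpr1, a formyl peptide receptor, Clec4d, and Alox5ap, which is needed for leukotriene synthesis. The S100a9 region, 13094 bp from the start, had pileups of 74, 71 and 217 in control and 37, 22 and 23 in HADA, the lowest ratio of the 24. The Fpr1 region had 57, 60 and 102 against 28, 18 and 16. Both were mid-ranking in control blood. The regions at Clec4d and Alox5ap were strong, with percentiles from 88.7 to 93.6 and from 89.9 to 95.2 in control and from 67.2 to 71.1 and from 63.3 to 78.5 in HADA.

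The summed promoter level of the neutrophil list was also lower in HADA. The summed pileup over background of 20 neutrophil genes with a shared promoter region was 1365, 1048 and 2157 in control 1 to 3 and 911, 739 and 638 in HADA 1 to 3. As a share of all shared promoter regions this was 0.134%, 0.147% and 0.229% against 0.0756%, 0.0651% and 0.0623%. Of the 20, 6 ranked lower in HADA by the 10-point margin and 0 higher, where 1.09% of all 11281 genes with a promoter region were lower and 4.48% higher. Control 3, where the pileups of the 841 regions were highest, also had the highest neutrophil sum. That was not particular to neutrophil genes. Control 3 also had the highest control sum for the monocyte, regulatory T cell, inflammatory signalling, NRF2 target, AP-1 family, erythroid and platelet, and housekeeping lists. In the other lists control 1 had the highest control sum. For 20 monocyte genes the share was 0.127%, 0.126% and 0.153% in control and 0.0904%, 0.0821% and 0.0833% in HADA, with 3 genes lower and 1 higher. For 12 B cell genes it went the other way, from 0.0717%, 0.0679% and 0.0484% to 0.109%, 0.122% and 0.113%, with 0 genes lower and 6 higher. T cell genes had shares of 0.0746%, 0.0761% and 0.0618% against 0.0860%, 0.0948% and 0.0929%, and 3 of 20 were higher. The regulatory T cell list did not follow the B and T cell lists: its 5 promoters summed to 0.0249%, 0.0278% and 0.0372% in control against 0.0167%, 0.0162% and 0.0168% in HADA, with 0 lower and 1 higher by the margin. For 6 NK cell genes the groups overlapped in this share. For 2 eosinophil and basophil genes the shares overlapped, at 0.00635%, 0.006896% and 0.006675% in control against 0.00667%, 0.007213% and 0.006439% in HADA. A lower share in every HADA library was thus not found for every myeloid marker list, nor was it limited to such lists. It was also found for inflammatory signalling genes (0.226%, 0.237% and 0.327% against 0.168%, 0.151% and 0.155%), AP-1 family genes (0.254%, 0.256% and 0.316% against 0.217%, 0.201% and 0.195%), NRF2 targets (0.166%, 0.172% and 0.2097% against 0.151%, 0.142% and 0.141%) and, by a smaller step, hypoxia response and housekeeping genes (for the latter 0.183%, 0.175% and 0.2099% against 0.167%, 0.166% and 0.163%). A sum can rest on a few strong promoters: by the margin, 1 gene of inflammatory signalling, 2 NRF2 targets and 0 of the AP-1 family, hypoxia response and housekeeping genes were lower. The direction depended on the scaling. In the summed pileup over library background, before division by all promoters, only the neutrophil list was lower in every HADA than in every control library. The B cell, T cell, NK cell, eosinophil and basophil, and erythroid and platelet lists were higher in every HADA library. NK cell sums were 133.3, 85.2 and 75.4 in control against 143.2, 151.2 and 160.5 in HADA. Eosinophil and basophil sums were 64.6, 49.2 and 62.8 against 80.3, 81.9 and 66.0. Erythroid and platelet sums came close, at 290.2 in control 3 and 292.0 in HADA 3. The groups overlapped for the monocyte, regulatory T cell, inflammatory signalling, AP-1 family, NRF2 target, hypoxia response, glucocorticoid and circadian, and housekeeping lists. The part of these marker levels in the lower rank of the 841 regions was not tested.

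At other myeloid genes, the monocyte list gave 2 of 17 shared distal regions, an exonic one of Mpeg1, the perforin-2 gene, and one near Cd300e, an activating receptor. The stronger set also took 2. Pileups at Mpeg1 were 62, 55 and 92 against 41, 23 and 21. The list of eosinophils and basophils gave 2 of 5, near Ccr3, the eotaxin receptor, and Cd200r3, and both hold a C/EBP match. Pileups near Cd200r3 were 74, 55 and 128 against 46, 27 and 23.

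The 4 lymphocyte lists held 70 shared distal regions, 19 of B cell, 31 of T cell, 12 of regulatory T cell and 8 of NK cell genes. Of these, 0 were among the 841 and 14 were in the stronger set, where the shares over all shared distal regions were 10.1% and 8.97%. The stronger ones were 2 of B cell, 6 of T cell, 5 of regulatory T cell and 1 of NK cell genes. Their lists' median differences of the mean percentile were 10.4, 8.91, 17.15 and 7.65 points upward. The distal regions of the regulatory T cell list thus went the other way from the summed share of its promoters. The 6 housekeeping regions were in neither set.

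Interleukin-1 and inflammatory signalling genes held 28 shared distal regions, of which 5 were among the 841 and 1 was in the stronger set. Besides both Ccr1 regions these were 2 near Nfkbiz, which encodes the nuclear IκBζ protein, and 1 near Tlr2, the receptor for bacterial lipoproteins. The Tlr2 region lay 3383 bp from the start and had pileups of 120, 121 and 265 in control and 77, 55 and 41 in HADA. The Nfkbiz regions lay 119844 and 127333 bp away, and the nearer one had percentiles of 83.6, 82.8 and 84.4 against 64.7, 58.0 and 62.9, close together within each group.

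AP-1 family genes held 19, of which 4 were weaker and 1 stronger by the margin. Bach1, a repressor that competes with NRF2 for its sites, had 2, and Batf and Fosl2 had 1 each. The Bach1 intron had pileups of 25, 26 and 29 in control against 16, 18 and 20 in HADA, a ratio of 0.570 over background and the smallest change of the 24. The other Bach1 region has 66 copies of its summit sequence in the genome. Glucocorticoid and circadian genes held 13, of which 4 were weaker and 0 stronger. These lay inside Dusp1, a phosphatase of MAP kinases, inside Sgk1, inside Zbtb16 at 88687 bp from its nearest start, and outside Nr3c1. The last was 41667 bp from the start of Nr3c1, the glucocorticoid receptor gene. The Dusp1 region had pileups of 155, 138 and 335 against 120, 53 and 55.

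Among hypoxia response genes 2 of 11 were weaker and 0 stronger. Both lay in introns of other transcripts, 40069 and 87131 bp from the nearest start of Pfkfb3, an enzyme that sets the rate of glycolysis. Of 9 shared distal regions at NRF2 target genes, 1 was weaker and 0 stronger, in an intron of Gsr, the glutathione reductase gene. Its percentiles were 79.1, 81.8 and 83.3 in control against 67.4, 46.9 and 54.6 in HADA. With so few regions a list, these counts cannot be set apart from the 10.1% over all shared distal regions.

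**Figure D3:**
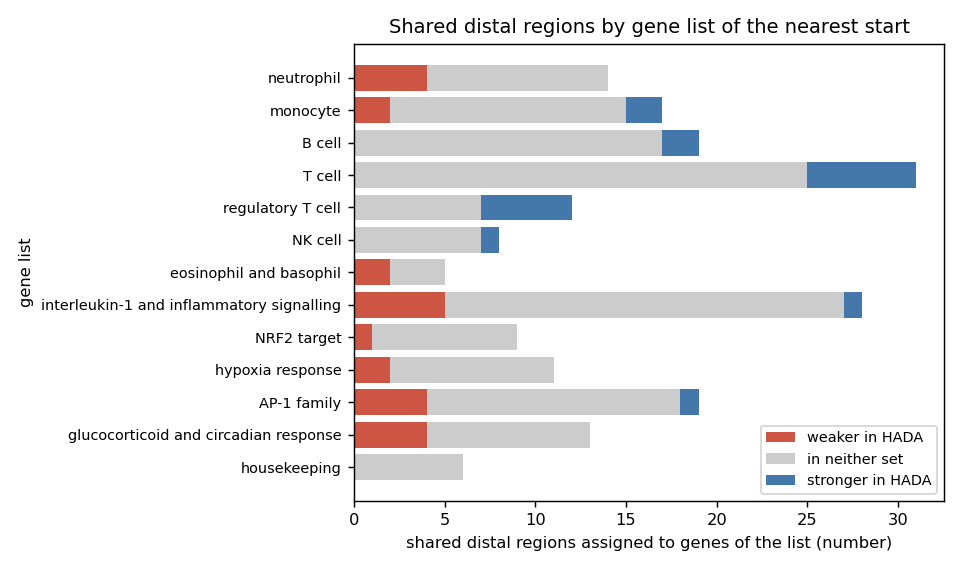
Number of shared distal regions assigned to each gene list that had any (horizontal axis), split into those weaker in HADA, stronger in HADA and in neither set. The T cell list has 31 regions with 0 weaker and 6 stronger, and the neutrophil list has 14 with 4 weaker and 0 stronger.

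The 841 regions had 741 nearest genes, of which 83 had 2 or more and 12 had 3 or more. Trib1, a pseudokinase that brings C/EBPα to degradation, had the most, with 5 of its 11 shared distal regions. These lay 96001 to 179898 bp from its start on the downstream side. The one closest to the gene, at 96001 bp, had pileups of 149, 117 and 278 in control and 96, 46 and 46 in HADA. The one at 135742 bp had 148, 143 and 257 against 100, 47 and 35. In all 5 control 3 had the highest pileup, and none of them held a C/EBP match within 100 bp of its summit. Ranked by the fold, the 5 gaps were 2.07 to 7.37 points, and 0 of the 5 met the margin. The Trib1 promoter stayed high in all libraries, with percentiles of 95.8, 95.1 and 95.5 in control and 90.3, 84.6 and 89.3 in HADA.

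Thbs1, the gene of the matrix protein thrombospondin-1, had 4 of 5, all in introns of other transcripts 114960 to 185796 bp from its start, and 3 of the 4 held a C/EBP match. The strongest had pileups of 209, 176 and 344 in control and 143, 88 and 77 in HADA. Btg1, an anti-proliferative factor of lymphocytes and other blood cells, had 4 of 8. Zfp608, a zinc finger gene, also had 4 of 8, of which 3 lay inside the gene and 1 was 416894 bp away. With the fold ranked, 1 of 4 met the margin at Thbs1, 3 of 4 at Btg1 and 2 of 4 at Zfp608. The promoters of Thbs1 and Btg1 overlapped between groups, and that of Zfp608 was higher in every HADA library, at 64.1, 57.7 and 53.3 in control against 72.0, 66.8 and 67.5 in HADA.

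App, the amyloid precursor protein gene, had 3 of 5 shared distal regions in the weaker set. Of the 10 genes described, it was the one whose promoter was also lower by the 10-point margin, with percentiles of 85.0, 81.7 and 86.0 in control and 69.2, 67.2 and 70.7 in HADA. One intronic App region with a C/EBP match had pileups of 60, 65 and 181 against 24, 12 and 16. Its ratio over background, 0.140, was the lowest of the 841. The App region between genes has 303 copies of its summit sequence. Trem4 had 3 of 3 and Arrdc4 and Brinp1 3 of 4 each, while Lpp had 3 of 14 and Cmip 3 of 10, with 1 stronger region each at Lpp and Cmip. The Trem4 promoter was lower in every HADA than in every control library, at 70.2, 72.7 and 81.7 against 64.4, 49.3 and 38.7, with a gap under the margin, and those of Arrdc4, Trib1 and Cmip were separated in the same direction by less than 5 points. The fold ranking left 2 of 3 at App, Arrdc4 and Lpp, 3 at Brinp1, 1 at Cmip and 0 at Trem4.

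**Figure D4:**
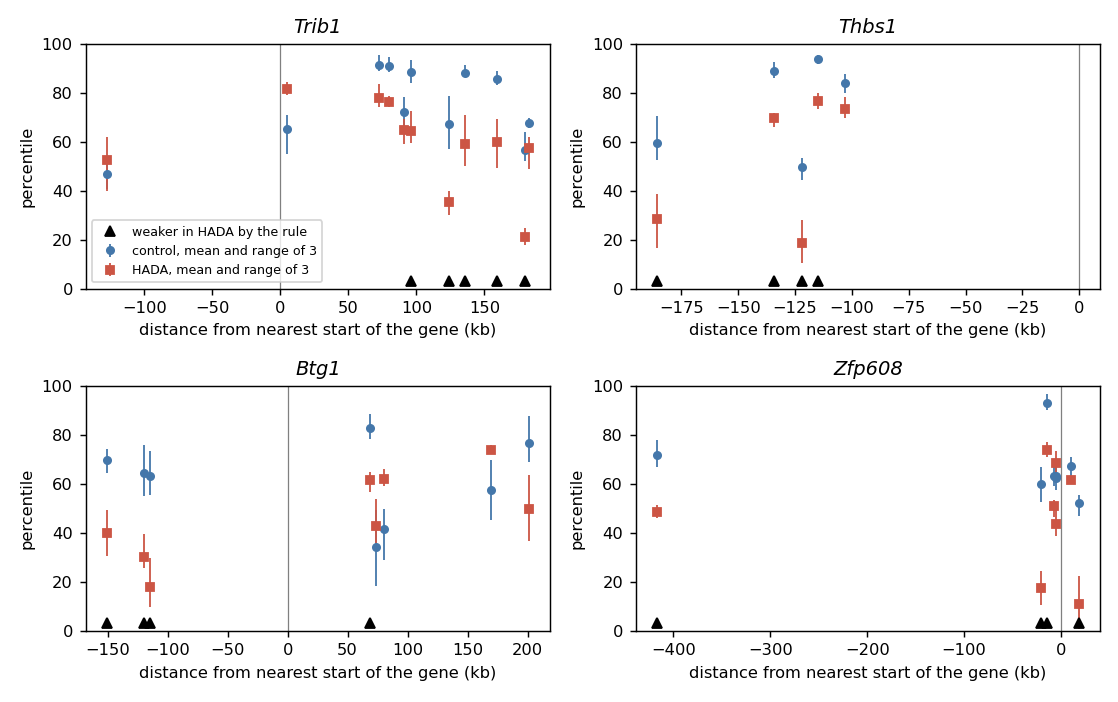
Percentile of every shared distal region assigned to Trib1, Thbs1, Btg1 and Zfp608 against its distance from the nearest start of the gene in kb, as mean and range of 3 control and 3 HADA libraries, with triangles under the regions of the weaker set. At Trib1 the 5 triangles lie at about 96 to 180 kb on the downstream side, and the regions upstream and nearest to the start are not among them.

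Promoters were not used to choose the regions. Of the 741 genes, 497 had a promoter region in all libraries, and 18 of these (3.62%) were lower in HADA by the 10-point margin, against 1.09% of 11281 genes and 1.68% of 3094 genes with a shared distal region. In the other direction it was 15 (3.02%) against 4.48% of all genes. The same libraries and contrast lie behind both, so this is no independent evidence. The 18 were Mctp1, Upp1, Gda, Zfp503, Clec4d, Hecw2, Clec4a2, Ifitm1, Rxra, Bcl2a1a, Cd244a, Sgms2, Fpr1, Bmal2, Creg2, App, Tlr5 and Foxd4. The Clec4d promoter had percentiles of 75.4, 74.4 and 86.4 against 60.0, 54.0 and 43.1. Most genes next to a weaker distal region thus had no such shift at their promoter, and the median promoter difference of the 497 was 1.16 points upward, against 3.76 over all genes.

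By position, 447 of the 841 lay in introns (53.2%, exact Clopper-Pearson 95% interval 49.7 to 56.6), 359 between genes (42.7%, 39.3 to 46.1) and 35 in exons (4.16%). The stronger set had 65.7% in introns and 26.3% between genes (23.2 to 29.6), and the regions of neither set had 56.5% and 38.7%. The median distance to a protein-coding start was 25550 bp in the weaker set, 17909 bp in the stronger set and 21658 bp over all shared distal regions. Over 100 kb from any such start lay 23.4% of the weaker set, 8.58% of the stronger and 20.1% of all. The weaker set was therefore farther from genes than the stronger set, and close to the shared distal regions as a whole. Median GC content within 100 bp of the summit was 46.3%, 49.8% and 47.3% in the same order. The intervals cover counting error only, and regions near each other are not independent: 127 of the 841 had another of them within 50 kb.

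For 18 motifs, both strands were read up to 100 bp each side of the strongest summit. The motifs were C/EBP (TTGCNNAA), AP-1 (TGANTCA), NF-E2 (TGACTCAGC), NRF2 (TGACNNNGC), PU.1 (GAGGAAGT), ETS (CCGGAAGT), RUNX (TGTGGTTT), GATA factors (AGATAAG), IRF (GAANNGAAA), NF-κB (GGGANTTCC), EGR2 (GCGTGGGNG), EBF (TCCCNNGGG), TCF7 (ATCAAAG), T-box (AGGTGTGA), KLF (CCACACCC), STAT (TTCNNNGAA), ROR (TAGGTCA) and CTCF. Every NF-E2 match is also an AP-1 and an NRF2 match.

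The C/EBP letters were in 156 of the 841 windows (18.5%, 16.0 to 21.3), against 8.31% of the stronger set (6.43 to 10.5), 10.2% of the regions of neither set (9.53 to 10.99) and 10.9% of all shared distal regions. In windows 1 kb away from the same summits the weaker set had them in 10.5%, near the 9.64% of all regions. With only summit sequences found once in the genome the shares were 20.4%, 8.29% and 10.1%. The match centres were not drawn towards the summit within the window, since 52.9% of them lay in its inner 50 bp each way. Seen from the sequence, 17.2% of 907 shared distal regions with the match were in the weaker set and 6.84% in the stronger, against 9.25% and 9.24% of 7405 without it. The median difference of the mean percentile was −12.4 points with and −3.00 points without.

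The share did not grow with the gap inside the weaker set. It was 17.3% at gaps of 10 to 15 points, 22.7% at 15 to 20, 15.8% at 20 to 30 and 19.4% above 30, where it rests on 6 of 31 regions. Over all shared distal regions it went from 17.9% where the mean percentile was 30 or more points lower in HADA to 6.90% where it was 20 or more higher. The commonest forms in the weaker set were TTGCTCAA in 25 regions and TTGCTGAA in 20. TTGCACAA, a common form of C/EBP sites, was in 19 of the weaker regions and 2 of the stronger.

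AP-1 letters were in 8.56% of the weaker set (6.76 to 10.7), 6.97% of the stronger and 5.64% of the regions of neither set. Over all shared distal regions binned by the difference of the mean percentile they showed no such excess, with 5.79% in the lowest bin and 6.82% in the highest. C/EBP and AP-1 were both present in 16 weaker regions (1.90%), against 0.268% and 0.625%. Each share was also higher there by itself, and whether the motifs met more often than their single shares give was not tested. NRF2 letters were in 9.04%, 8.04% and 7.11%, with wide overlap of the intervals of the weaker set (7.19 to 11.2) and the stronger set (6.19 to 10.2). The NF-E2 form was in 6 of the 841. The letters of other blood cell factors were scarcer in the weaker set than in the stronger one. These were RUNX (2.73% and 5.76%), IRF (7.02% and 11.7%), EBF (2.26% and 5.50%), KLF (2.02% and 4.42%) and PU.1 (5.47% and 9.12%), and the intervals of both sets overlapped for KLF and PU.1. In each of the 5 the weaker set was near the regions of neither set, from 2.16% for KLF to 7.66% for IRF. CTCF was found in 0 of 841 windows, which allows a share of up to 0.438%, and in 0.536% of the stronger set and 0.325% of all shared distal regions. Within 200 bp it was in 0.119% of the weaker set, against 4.69% of the stronger set, 2.16% of the regions of neither set and 2.18% of all.

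**Figure D5:**
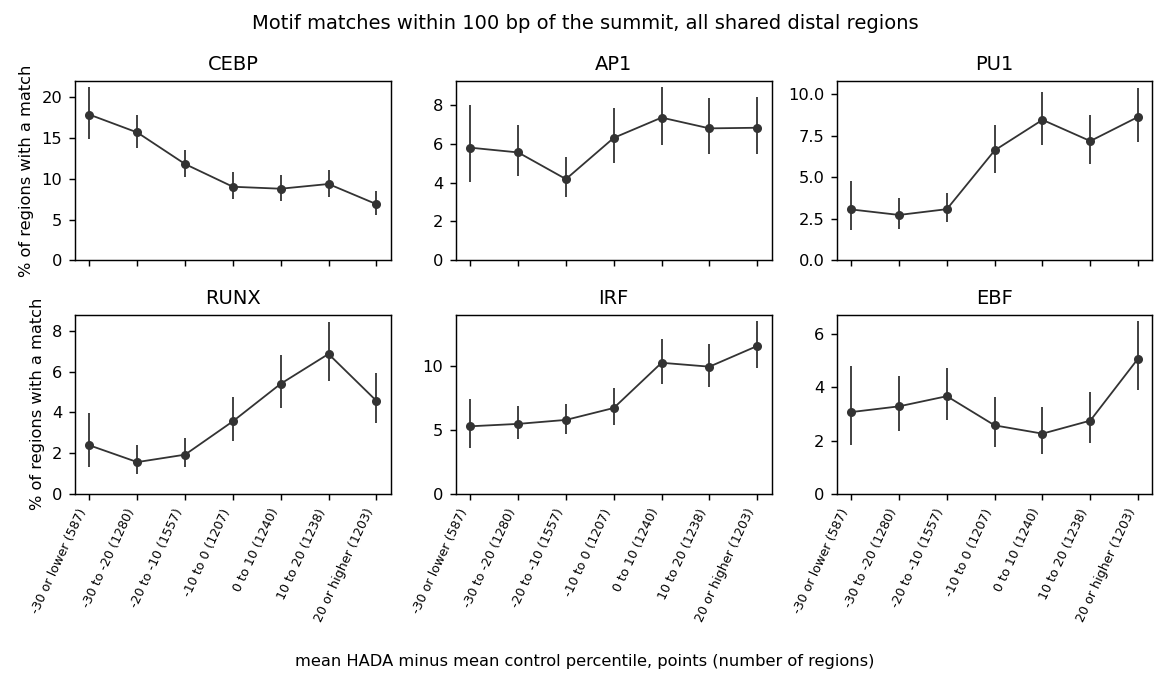
Share of shared distal regions with a motif match within 100 bp of the summit (vertical axis, percent, with exact 95% intervals) in bins of the mean HADA minus mean control percentile in points, with the number of regions in each bin. C/EBP goes from 17.9% in the lowest bin to 6.90% in the highest, while PU.1, RUNX and IRF letters are scarcer in the lowest bins, where PU.1 is at 3.07%, than in the highest, where it is at 8.65%.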

How the data were processed

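ATAC-seq peak lists of 3 control and 3 HADA libraries of mouse blood leukocytes were analysed. Groups and replicate numbers came from the sample titles, which name no batch. According to the submitters' processing notes, the authors used FastQC, Trimmomatic, Bowtie2, Picard and MACS2 with GRCm39. Each library was called by itself, and the MACS2 options and any shift for the Tn5 insertion are not given in the sources used here. Per peak, the deposited lists hold a score, a fold (ratio) of the summit over local background, a −log10 p-value and a −log10 q-value. The authors' score was not used. Read totals were not analysed here, so depth was taken from the lists' lowest background pileup.

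Peaks on chromosomes 1 to 19 were merged and ranked as described in the report. Starts, exons and introns were from the GENCODE annotation of GRCm39. A region was assigned to the protein-coding gene whose start was nearest to its strongest summit. Summit pileup and background were solved from the deposited fold and −log10 p-value, which succeeded for 100% of peaks in each library. A promoter region had a summit within 3 kb of a start of the gene. Genomic copies of the 50 summit bases were counted as exact matches. The computation ran in python 3.11.15 with numpy 2.4.6, pandas 2.3.3 and scipy 1.17.1 and was tested on simulated data.

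The regions, the 14 lists of 280 genes and the motifs were chosen with earlier results of these data known. Named in the text were the 15 regions with the largest gap, up to 5 per gene list, the genes with 3 or more regions (at most 10, by number and then by largest gap), and the 3 regions on each side of the limit. Sequences came from the first 2 of these groups, outside chromosome 18 and exons, with a summit sequence found once. No test was made, since the contrast chose the regions. Nothing states that libraries are separate animals, so the spread between them may be technical.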

Additional observations from a re-analysis of the deposited data

How the results depend on the processing

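The number of weaker shared distal regions, 841, was 1486 at a margin of 5 points, 189 at 20 points and 465 with starts over 10 kb away. It was 614 when the fold was ranked (480 of the 841 among them) and 945 when the pileup was ranked (762). With 1 library left out it ran from 970 to 1446, the highest values being those without control 3 (1446) and without HADA 3 (1410), since fewer libraries make the margin easier to meet. The share with C/EBP letters, 18.5%, was 14.8% when the fold was ranked, 9.63% in a window of 50 bp and 31.4% in one of 200 bp. With 1 library left out this share ran from 15.4% without control 3 to 18.1%, and was 15.9% without HADA 3. The other alternatives kept the number within 1.5 times and the share within its interval. The share in introns ran from 47.0% to 56.7%. Of the alternatives that could narrow the gap of a named region, the fold ranking put 37 of 72 under 10 points, the ranking among shared distal regions 13, and the rankings of the pileup and among peaks of chromosomes 1 to 19 put 0. Filters and margins leave a gap as it is, and leaving out a library can only widen it. With the fold ranked, 11 gaps fell below 0, so that the groups overlapped: S100a9 (−1.32), Fpr1 (−2.92), Ccr1 (−0.083), Sgk1 (−0.99), Dusp1 (−3.47), Thbs1 (−1.84 and −5.85), App (−0.0046) and Trem4 (−0.48, −2.32 and −14.2). With the fold ranked, the counts of the neutrophil, eosinophil and basophil, NRF2 target, hypoxia and glucocorticoid lists were 0. Why the fold ranks these regions differently was not tested, beyond the lower local background. No paired analysis was possible because the counts come from no test and nothing states that equal replicate numbers pair the libraries. Depth limits the weakest regions, where few fragments decide the rank.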

Other observations

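Of the 841 weaker regions, 168 (19.98%) had summit bases found more than once in the genome, and 71 had over 100 copies. Over all shared distal regions the share was 21.4%, and in the stronger set it was 2.95%. The sets thus differed in how much repeated sequence they held, and the part of this in their distances from genes and in their GC content was not tested. Regions lying close together were few: 39 of the 841 had another of them within 10 kb.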
